A study of Mus musculus with 13 samples.

Results

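Srebf2, Insig1, Hmgcs1, Idi1, Fdft1, Sqle, Lss and Dhcr7, which are 8 genes of cholesterol synthesis and its control, were followed across mammary glands and mammary tumors of HER2/Neu transgenic mice. The rule lists them by symbol and holds no measured value, although they were chosen with earlier results of these data known. All 8 were found among the 24421 genes of the count table, and all 8 passed the filter on low counts. The set holds 6 enzymes, the transcription factor gene and its ER anchor, but no lipoprotein receptor, so cholesterol uptake was read from a separate list. Bulk RNA was sequenced from 13 samples of female mice of the FVB/N-TgN strain 202Mul/J (MMTV-HER2/neu), a line with a rat HER2/Neu transgene behind the MMTV promoter, which acts mainly in mammary epithelial cells. The labels give the genotype of every sample, tumors included, as wild type beside that strain name, and whether the glands carried the transgene was not tested. There were 2 mammary glands of untreated mice and 3 primary tumors of untreated mice. Another 3 primary tumors came from mice given the reverse transcriptase inhibitor stavudine (STV) at 1 mg/mL in drinking water. The study describes these as tumors that developed in STV-treated mice. Its methods start STV at 2 months of age or once the primary tumor had appeared. The labels do not say which holds for the recurrent tumors with STV. Recurrent tumors had regrown after treatment with the HSP90 inhibitor 17-DMAG (20 mg/kg by intraperitoneal injection, 3 times a week), without STV in 3 samples and with STV in 2. By the study's methods, dosing went on until the regrown tumors reached their end point size. Recurrence and current exposure to 17-DMAG therefore cannot be told apart in these samples. Ages are not given in the labels, each library is named as a separate sample of its group, and nothing ties replicates to separate litters or cages, so p-values measure the spread between these samples.

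Cells make cholesterol from acetyl-CoA through mevalonate, the isoprenoid diphosphates, squalene and lanosterol. The pathway is controlled mainly by SREBP-2, the product of Srebf2: when ER sterol is low, SCAP escorts the precursor to the Golgi, proteases release its N-terminal part, and this part activates the genes of nearly every enzyme of the pathway. INSIG proteins hold SCAP in the ER when sterol is high, and Insig1 is itself an SREBP target. The lactating mammary epithelium makes lipid on a large scale for milk fat and expresses sterol and fatty acid synthesis genes at high levels.

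Promoter sequence was compared with known SREBP sites because the 8 genes are textbook targets of this factor. RefSeq promoters (build GRCm38.p6, 250 bases before each listed transcription start) matched 6 of the 8 symbols: Srebf2, Insig1, Hmgcs1, Idi1, Lss and Dhcr7. The sterol regulatory element written as TCACNCCAC was searched on both strands and lay in 1 of the 6, Hmgcs1, as TCACCCCAC with its first base 137 bases before the start, against 1.22% of 27025 genes. The shorter core CACNCCA, which the longer element contains, lay in 3 of the 6 (Hmgcs1, Srebf2 and Insig1) against 17.41% of genes. CCAAT, the box of NF-Y, a factor that binds next to SREBP at many sterol genes, lay in 6 of 6 against 37.49% of genes, and GGGCGG, the GC box of Sp1, in 6 of 6 against 35.36%. A gene with several listed starts was counted when any of them held the letters, and Dhcr7 has 3, of which the third alone held CCAAT. These matches describe letters and not bound sites. Distances are to RefSeq starts, which differ from the GENCODE gene starts given further below. The GENCODE starts of Idi1 (8885501), Insig1 (28071363) and Srebf2 (82147181) lie inside their windows. By these, the CCAAT boxes of Idi1 and the core of Insig1 lie past the start and not before it. Windows are shown for the 3 promoters with the core and for Idi1, where the CCAAT box lies nearest to the RefSeq start. Capitals mark every match to the 4 patterns on either strand.
Hmgcs1 promoter, chr13:119690101-119690350, plus strand: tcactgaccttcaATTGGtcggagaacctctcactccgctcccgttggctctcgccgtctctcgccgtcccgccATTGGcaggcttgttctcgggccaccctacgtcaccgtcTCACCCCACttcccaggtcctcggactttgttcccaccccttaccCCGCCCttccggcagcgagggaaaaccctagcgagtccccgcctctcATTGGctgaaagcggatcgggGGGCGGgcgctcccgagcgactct
Srebf2 promoter, chr15:82147019-82147268, plus strand: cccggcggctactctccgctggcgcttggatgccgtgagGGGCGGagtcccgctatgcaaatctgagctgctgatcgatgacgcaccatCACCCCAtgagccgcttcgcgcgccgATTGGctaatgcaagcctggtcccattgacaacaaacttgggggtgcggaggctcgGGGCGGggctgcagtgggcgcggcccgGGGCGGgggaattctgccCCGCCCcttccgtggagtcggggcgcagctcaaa
Insig1 promoter, chr5:28071162-28071411, plus strand: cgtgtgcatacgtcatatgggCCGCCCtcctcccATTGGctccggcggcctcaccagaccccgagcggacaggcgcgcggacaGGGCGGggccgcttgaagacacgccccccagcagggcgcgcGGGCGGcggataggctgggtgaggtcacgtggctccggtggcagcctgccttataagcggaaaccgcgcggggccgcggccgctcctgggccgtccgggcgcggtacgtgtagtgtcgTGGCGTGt
Idi1 promoter, chr13:8885356-8885605, plus strand: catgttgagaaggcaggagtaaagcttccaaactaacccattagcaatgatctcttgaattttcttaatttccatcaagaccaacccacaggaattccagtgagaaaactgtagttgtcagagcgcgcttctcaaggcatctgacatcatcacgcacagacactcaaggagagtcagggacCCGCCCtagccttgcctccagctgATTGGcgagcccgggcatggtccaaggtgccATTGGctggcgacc

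Levels were CPM, the counts relative to library totals scaled by TMM factors, which set the bulk of genes equal between libraries. Totals ran from 39921388 to 56887708 counts, so a count of 3 corresponded to 0.0587 to 0.107 CPM, far below every value of the 8 genes. Mammary gland 2 stood apart: 37.7% of its counts fell on 8 milk protein genes, against 3.16% in gland 1 and 0.49% to 2.47% in the tumors, and its TMM factor was 0.493 against 0.999 to 1.12 in the other 12 libraries. Gland 1 in turn carried B cell markers at a summed 114 CPM, against 2.18 CPM in gland 2 and 0.391 to 1.53 CPM in tumors. Summed adipocyte markers were 1467 and 3901 CPM in the glands and 18.9 to 209 CPM in the tumors. None of 7 luminal epithelial markers was at 0 in any library, and their sum was 1409 to 1702 CPM in glands and 1355 to 2818 CPM in tumors. In bulk tissue, fewer cells of a type and less RNA per cell cannot be told apart.

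Srebf2 (chr15:82147181-82205379 on GRCm38) encodes SREBP-2. Its level was 116 and 126 CPM in the glands, 163, 116 and 139 CPM in untreated primary tumors, 154, 132 and 173 CPM in STV primary tumors, 123, 161 and 179 CPM in tumors recurrent after DMAG, and 112 and 125 CPM in tumors recurrent after DMAG+STV. Both glands lay within the tumor range. Srebf2 was also among the steadier of the 8 over the 11 tumors, from 112 CPM at the lowest to 179 CPM at the highest.

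Insig1 (chr5:28071363-28078662) encodes an ER protein that retains SCAP. It was at 59.4 and 399 CPM in the glands, 40.2, 24.4 and 31.9 CPM in untreated primary tumors, 50.4, 27.6 and 38.6 CPM in STV primary tumors, 17.4, 28.7 and 42.9 CPM after DMAG and 24.2 and 21.8 CPM after DMAG+STV. Both glands were above all 11 tumors, and gland 2 was 6.72 times gland 1. The count ratio of Insig1 to Srebf2, which no scaling of libraries can change, was 0.512 in gland 1, 3.18 in gland 2 and 0.142 to 0.326 in the tumors, so the glands and tumors did not overlap on it either.

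Among the enzymes of the mevalonate arm, Hmgcs1 (chr13:119690379-119708260), the cytosolic HMG-CoA synthase, was at 53.8 and 109 CPM in the glands and at 40.5 to 59.6 CPM in the tumors with a median of 48.8 CPM. It was the steadiest of the 8 over tumors, at 1.47 from lowest to highest. Idi1 (chr13:8885501-8892451), which isomerizes isopentenyl diphosphate, was at 8.40 and 25.4 CPM in the glands and at 7.95 to 17.6 CPM in the tumors with a median of 10.9 CPM. In both genes gland 1 lay inside the tumor range and gland 2 above it.

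In the squalene arm, Fdft1 (chr14:63145150-63179578), squalene synthase, was at 24.3 and 54.1 CPM in the glands and 15.7 to 28.9 CPM in tumors. Sqle (chr15:59315077-59331192), the squalene epoxidase and a rate-limiting step, was at 31.6 and 188 CPM in the glands. In tumors it was at 47.5, 37.5 and 47.0 CPM (untreated primary), 48.2, 32.4 and 48.0 CPM (STV primary), 90.2, 40.1 and 54.2 CPM (DMAG) and 40.6 and 49.7 CPM (DMAG+STV). The recurrent tumor DMAG 1 was 1.66 times the next highest tumor, and gland 1 was below all tumors. Lss (chr10:76531588-76557138), the cyclase that forms lanosterol, was at 32.9 and 97.6 CPM in the glands, and at 50.5, 47.9 and 47.2 CPM, 51.1, 53.5 and 46.0 CPM, 22.1, 41.4 and 51.3 CPM, and 38.9 and 43.0 CPM in the same order of tumor groups. The lowest Lss was in the tumor with the highest Sqle.

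Dhcr7 (chr7:143823145-143848410), the reductase that converts 7-dehydrocholesterol to cholesterol, was at 31.2 and 63.1 CPM in the glands. It was at 63.9, 60.1 and 78.9 CPM in untreated primary tumors, 57.8, 45.3 and 69.3 CPM in STV primary tumors, 53.0, 61.7 and 74.4 CPM after DMAG, and 44.7 and 35.9 CPM after DMAG+STV. Dhcr7 was thus lower in both DMAG+STV tumors than in the other 9, although the margin to the lowest STV primary tumor was narrow.

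**Figure D1:**
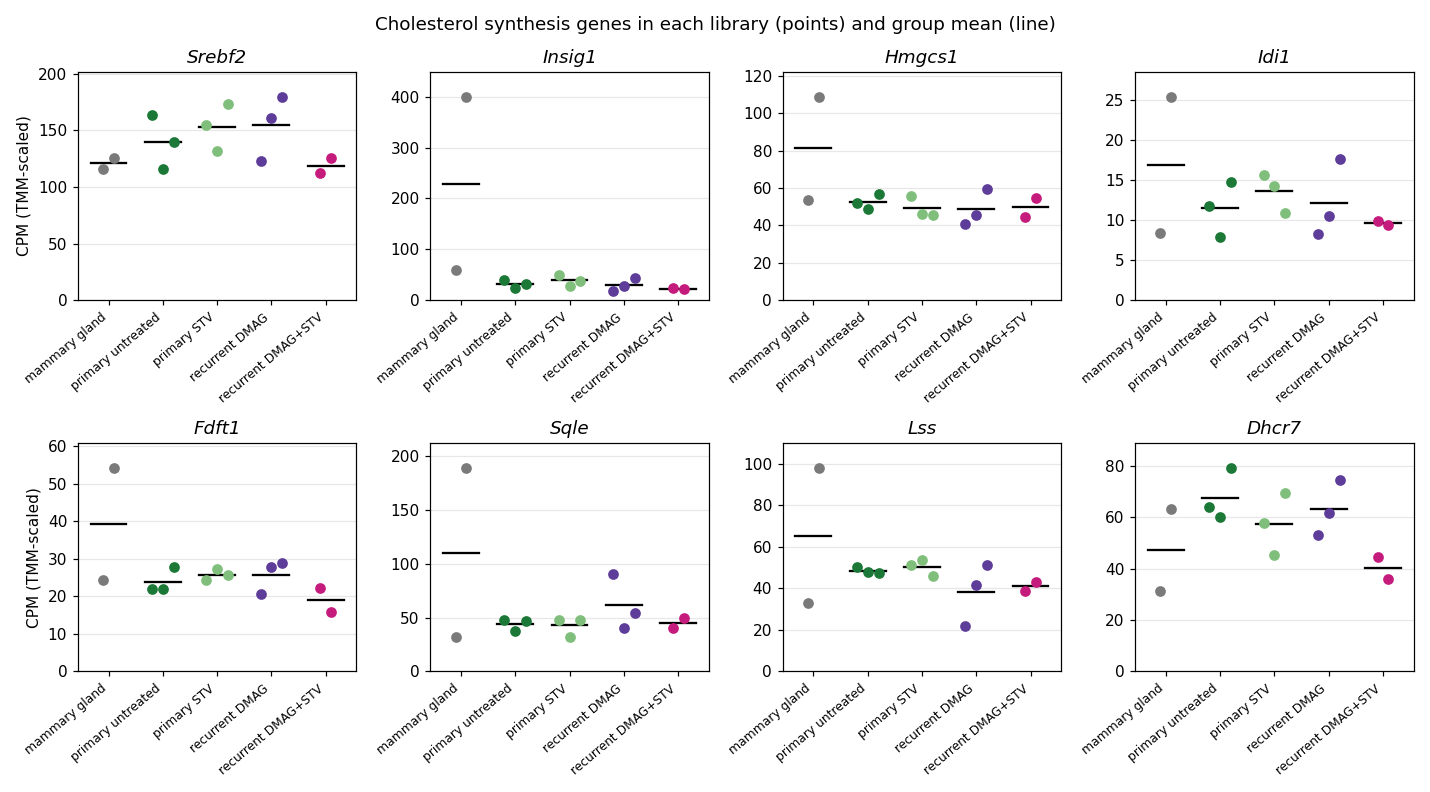
TMM-scaled CPM of each of the 8 genes (y axis, from 0, a separate scale for each gene) by group, with 1 point per library and a line at the group mean. Gland 2 is the highest library for every gene but Srebf2 and Dhcr7, the Sqle point at 90.2 CPM is tumor DMAG 1, and the 2 Dhcr7 points of DMAG+STV lie below all other tumors.

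Per kilobase of annotated exon, the mean level over 11 tumors was 20.0 ± 3.30 CPM per kb for Srebf2 (SD), then 10.9 ± 1.33 for Hmgcs1, 10.2 ± 3.29 for Insig1, 10.1 ± 2.27 for Dhcr7, 8.78 ± 2.73 for Sqle, 5.67 ± 0.941 for Fdft1, 4.15 ± 0.814 for Lss and 3.40 ± 0.917 for Idi1. Neighbors in this order differed by less than the SD of either gene from Hmgcs1 down to Sqle, and for Lss and Idi1, while the steps from Srebf2 to Hmgcs1, from Sqle to Fdft1 and from Fdft1 to Lss were larger. Exon lengths came from GENCODE vM21 and may differ from those the counts were made on. Over tumors, the median of the SDs of the 8 genes on the log2 CPM scale was 0.350, against 0.241 over all 9815 genes with a mean of at least 10 CPM, a set not matched to the 8 on level.

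Tumors were compared with glands as the mean of the 4 tumor groups. Insig1 was lower in tumors by 2.91 on the log2 scale (SE 0.440, 95% CI -3.89 to -1.94, adjusted p = 0.00409, edgeR quasi-likelihood test), and it was the only one of the 8 called at an adjusted p under 0.05. Over all 17135 genes tested, 10.4% were called, so 1 call among 8 was near the background. At an unadjusted p under 0.05, 4 of 8 passed, all lower (Insig1, Hmgcs1, Fdft1 and Sqle). Over all genes 29.6% passed in either direction, and 3253 of 17135 were lower. Insig1 was also the only member whose tumors lay wholly below the glands, against 7.37% of genes. Hmgcs1 had a log2 difference of -0.70 (SE 0.215, adjusted p = 0.0637), Fdft1 of -0.74 (SE 0.242, adjusted p = 0.0750) and Sqle of -1.20 (SE 0.441, adjusted p = 0.104). Lss and Idi1 had values of -0.56 and -0.53, while Srebf2 and Dhcr7 had small positive ones of 0.22 and 0.25, none past the threshold. In untreated primary tumors alone against the glands, Insig1 was lower by 2.83 on the log2 scale (SE 0.629, adjusted p = 0.0491, edgeR), again 1 call of 8, against 2.11% of genes at an adjusted p under 0.05. At an unadjusted p under 0.05 the same 4 genes passed, all lower, against 24.5% of all genes in either direction and 2605 of 17135 lower. This call was close to the threshold and was lost under 16 of 20 alternatives, with adjusted p from 0.000302 to 0.432.

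The gland comparison rested on gland 2. Without it, with the lone gland 1 assumed to vary like the other groups, no member was called (2.94% of genes were called lower), the Insig1 difference was -0.88 on the log2 scale (adjusted p = 0.332, edgeR), and Fdft1, Idi1, Lss and Sqle turned to positive values of 0.03, 0.56, 0.51 and 0.68. Without gland 1, 5 members were called lower in tumors (Insig1, Sqle, Fdft1, Hmgcs1 and Lss) against 12.4% of genes, and the Insig1 difference was -3.68. Across the 6 member enzymes and 15 other enzymes of the pathway, gland 1 lay within the tumor range for 16 of 21, below it for 5 and above it for 0, and gland 2 lay above it for 19 of 21. Over all genes tested, gland 2 was above the tumor range for 25.8% and gland 1 for 15.0%. The size of this depends on scaling, since milk transcripts take part of the total of gland 2. Scaled to library totals alone, gland 2 was above the tumors for 8 of the 21 enzymes with a median of 1.15 times the tumor median, in place of 2.53 times under TMM. By that scaling it was above the tumors for 5.44% of all genes and below them for 62.6%, with a median of 0.464 times. Scaled to totals without the 8 milk protein genes, it was above for 17 of 21 enzymes with a median of 1.84, and for 13.3% of all genes with a median of 0.735. Insig1 stayed highest in gland 2 under all 3 scalings, at 13.9, 6.45 and 10.3 times the tumor median, and both glands exceeded all tumors each time. By library totals the Lss and Idi1 differences between tumors and glands were 0.13 and 0.16, positive where TMM gave negative values, and the median difference of all genes moved from -0.02 to 0.37. Gland 2 also held skeletal muscle markers at 2083 CPM, against 16.8 CPM in gland 1. The part of milk, fat, lymphoid and muscle cells in the gland differences was not tested.

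**Figure D2:**
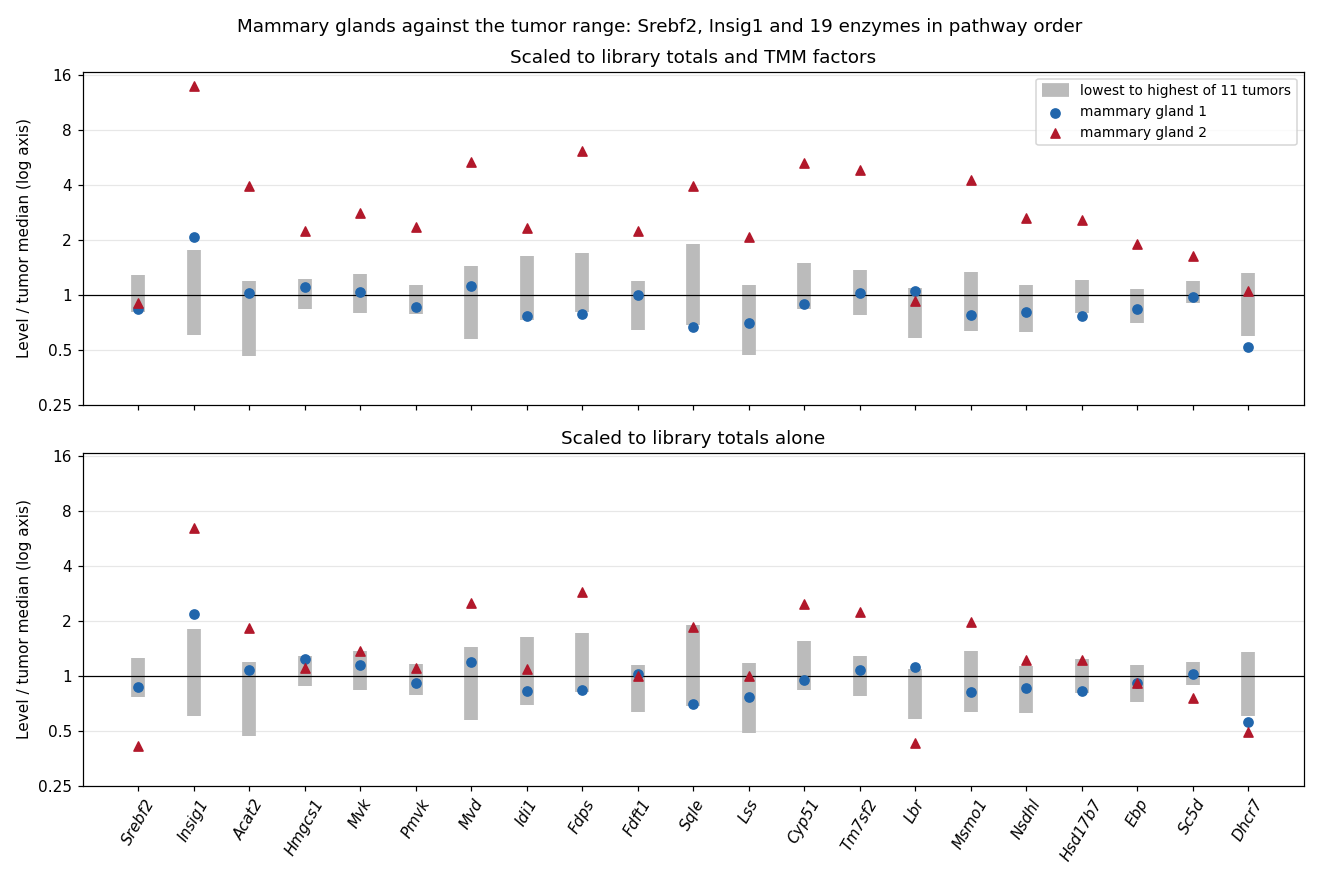
Level relative to the tumor median (log axis) for Srebf2, Insig1 and 19 of the 21 enzymes in pathway order, for gland 1 (circles) and gland 2 (triangles), with gray bars from the lowest to the highest of 11 tumors. The upper panel uses TMM scaling, where gland 2 exceeds the tumors for 17 of the 19 enzymes drawn, and the lower panel uses library totals, where it does so for 8, with Insig1 above the tumors in both glands in both panels.

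The other enzymes of the pathway had the same sign under TMM as 5 of the 6 enzyme members, Dhcr7 being the exception. All 15 were negative in tumors against glands under TMM and 10 of 15 by library totals. Under TMM their median was -0.83 on the log2 scale against -0.02 over all genes tested, and 5 were called lower: Mvd (-1.76, mevalonate diphosphate decarboxylase), Fdps (-1.65, farnesyl diphosphate synthase), Acat2 (-1.53, cytosolic acetoacetyl-CoA thiolase), Tm7sf2 (-1.52, a sterol C14 reductase) and Cyp51 (-1.50, lanosterol demethylase). Of 11 genes of uptake and transport, 3 were called lower: Lrp8 (-2.64, a lipoprotein receptor), Lipa (-2.08, the lysosomal cholesteryl ester hydrolase) and Scarb1 (-1.32, the HDL receptor). None of 8 genes of SREBP processing and turnover was called. Scap, the escort protein, had a difference of 0.05, and Srebf1, which encodes the lipogenic SREBP-1, one of 0.82 (adjusted p = 0.138, edgeR), with 975 and 587 CPM in glands and 571 to 1732 CPM in tumors. Of 8 tested genes of 10 in the list for efflux, esterification and the LXR receptors, 1 was called lower, Nr1h3 (-1.42, LXR alpha). Over all 17135 genes tested, 8.81% were called lower in the same fit, and 1 of 8 was near that share. These calls too rested on gland 2 and on the scaling. Without gland 2, 12 of the 15 enzymes turned positive with a median of 0.29, against 0.11 over all genes, and no gene of the 4 lists was called. Without gland 1, 14 of the 15 enzymes were called lower with a median of -1.41, as were 6 of the 11 uptake and transport genes, against 12.4% of all genes. By library totals the enzymes had a median of -0.12 against 0.37 over all genes, and Lipa was the 1 gene of the lists still called (-1.45, adjusted p = 0.0432, edgeR), where 2.81% of all genes were called lower.

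Among tumors, the first question was whether STV changed these genes before chemotherapy. No difference of the 8 between STV and untreated primary tumors passed the test: log2 differences ran from -0.25 (Dhcr7, 95% CI -0.67 to 0.18) to 0.26 (Insig1, 95% CI -0.48 to 1.01), and in all 8 genes the ranges of the groups overlapped. At an adjusted p under 0.05, 0 of 8 members and 0% of 16870 genes were called by edgeR, and at an unadjusted p under 0.05, 0 members and 3.76% of genes. None of the 15 other enzymes, 11 uptake genes, 8 SREBP genes or 8 tested efflux genes passed an unadjusted p of 0.05 either. The most positive of these were Cyp27a1 (0.68, a sterol hydroxylase) and Lrp8 (0.45), and the most negative Abcg1 (-0.59) and Tm7sf2 (-0.38).

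Recurrence after DMAG was then compared with untreated primary tumors. Again 0 members and 0% of genes were called at an adjusted p under 0.05, and at an unadjusted p under 0.05, 0 members against 9.69% of genes. The largest difference was that of Sqle, 0.47 on the log2 scale (95% CI -0.17 to 1.10, adjusted p = 0.546, edgeR), and it rested on tumor DMAG 1, since it was 0.11 without it. Lss had a difference of -0.36 (95% CI -0.91 to 0.20) with the same tumor at its lowest point. In the fixed lists, Tm7sf2 (-0.53) and Npc2 (-0.44, a lysosomal sterol carrier) were lower and Scarb1 (0.63) and Soat1 (0.67, which esterifies cholesterol) higher at an unadjusted p under 0.05, none of them called after adjustment. Lrp8 (1.20, SE 0.659) and Srebf1 (-0.55, SE 0.316) had differences of similar or larger size with more spread.

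Under STV, recurrent tumors were lower than primary tumors for 6 of the 8 genes with no overlap of the 2 and 3 samples: Srebf2 (-0.36), Insig1 (-0.76), Idi1 (-0.50), Fdft1 (-0.44), Lss (-0.29) and Dhcr7 (-0.51), with Hmgcs1 (0.02) and Sqle (0.08) near 0. Over all genes, 17.9% were lower without overlap in this comparison. At an adjusted p under 0.05, 0 members and 0% of genes were called, and at an unadjusted p under 0.05, 1 member passed, Dhcr7 (95% CI -0.99 to -0.02, adjusted p = 0.481, edgeR), against 10.1% of genes. Not all enzymes shared the sign: 9 of the 15 others were negative, with a median of -0.04, Acat2 (-0.93) and Lbr (-0.70, a sterol C14 reductase of the nuclear envelope) being lower at an unadjusted p under 0.05. Stard4 (-0.70, a cytosolic sterol carrier) and Insig2 (-0.42) were also lower, and Lipa (1.18) and Apoe (0.88) higher at that level, while Nr1h3 had a difference of 1.15 (SE 0.522) that did not pass. In the same comparison 6 of 6 proliferation genes were lower at an unadjusted p under 0.05 (median -1.10), their sum being 355 and 157 CPM in DMAG+STV tumors and 492 to 763 CPM in STV primary tumors. Luminal markers summed to 2224 and 1355 CPM against 2269 to 2598 CPM, macrophage markers to 212 and 268 CPM against 104 to 127 CPM, and skeletal muscle markers to 24.4 and 1921 CPM against 9.72 to 216 CPM. The luminal markers did not fall alike. Of 7, 6 were negative, but Epcam (-0.99) alone at an unadjusted p under 0.05, Krt8 (-0.09) and Cldn3 (-0.11) were near 0, and Cdh1 was positive (0.21). The part of these cell types in the lower sterol genes was not tested.

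STV in recurrent tumors was read from DMAG+STV against DMAG. Dhcr7 was lower by 0.64 on the log2 scale (SE 0.217, 95% CI -1.13 to -0.15, adjusted p = 0.497, edgeR), the 1 member of 8 past an unadjusted p under 0.05, against 7.84% of genes, and the 1 member with groups that did not overlap in the lower direction, against 10.5% of genes. At an adjusted p under 0.05 the counts were 0 members and 0% of genes. Fdft1 (-0.44, 95% CI -0.89 to 0.02) and Srebf2 (-0.37, 95% CI -0.82 to 0.07) followed, and Sqle (-0.44) had a wide interval of -1.16 to 0.28. Leaving out either DMAG+STV tumor kept the sign for Dhcr7, at -0.82 and -0.50. Acat2 (-0.76), Lbr (-0.68) and Stard4 (-0.65) were again lower at an unadjusted p under 0.05, and so were 6 of 6 proliferation genes, whose sum was 779 to 819 CPM in the DMAG tumors. Lrp8 (-1.28), Nr1h3 (1.00) and Lipa (0.78) had larger differences that did not pass. This comparison and that of recurrence under STV share the DMAG+STV tumors, so their values are not independent of each other.

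**Figure D3:**
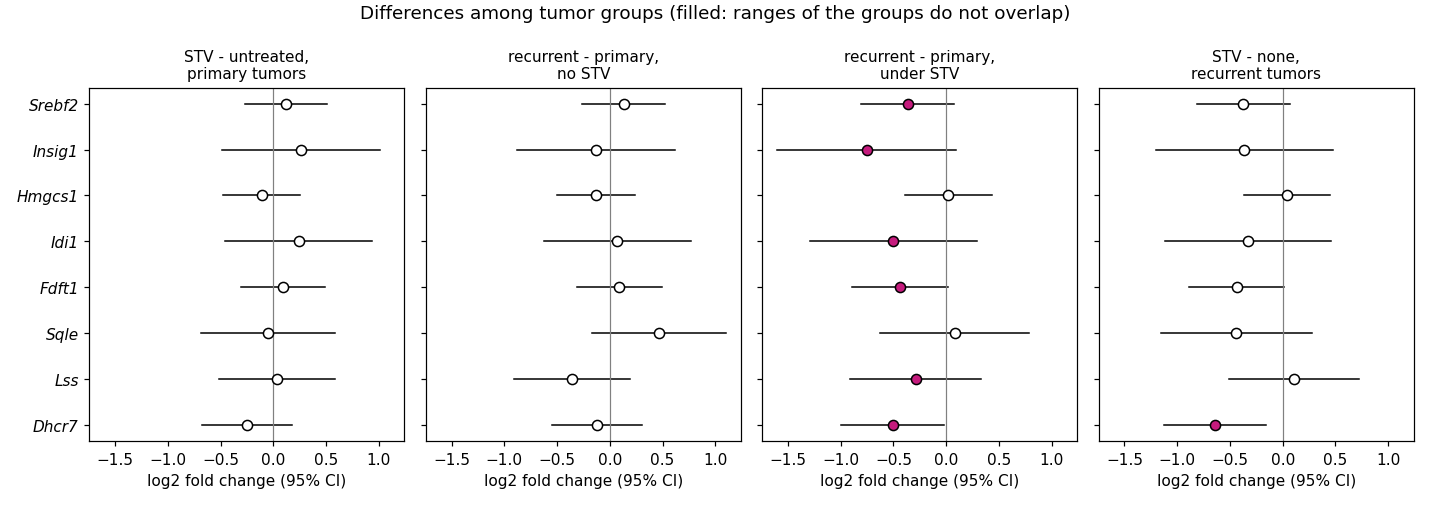
Log2 fold changes of the 8 genes with 95% confidence intervals (x axis) in 4 comparisons of tumor groups, with filled points where the samples of the groups do not overlap. The 6 filled points of recurrence under STV and the Dhcr7 point of STV in recurrent tumors lie below 0, and no value was called at an adjusted p under 0.05.

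Averaged over mice with and without STV, recurrent and primary tumors differed by -0.44 (Insig1) to 0.28 (Sqle) on the log2 scale, 7 of the 8 being negative, and 0 members passed at an adjusted p (0% of genes) or an unadjusted p under 0.05 (13.6% of genes). The genes of efflux and esterification had the opposite sign, 8 of 8 tested positive with a median of 0.52, with Apoe (0.53) and Soat1 (0.66) at an unadjusted p under 0.05. The other list genes at that level were Lipa (0.89), Acat2 (-0.44), Npc2 (-0.36), Lbr (-0.30) and Insig2 (-0.28). In the same comparison 6 of 6 macrophage markers were positive (median 0.71), 5 of them at that level, and 6 of 6 proliferation genes negative (median -0.28), 2 of them at that level. For proliferation this average joined opposite signs. Without STV, 6 of 6 were positive in recurrent tumors (median 0.45), 0 of them at that level, and under STV 6 of 6 were negative (median -1.10). The interaction, whether the change with recurrence differed with STV, was negative for 6 of 8 members, lowest for Insig1 (-0.62, 95% CI -1.75 to 0.50), and in the lists it ran from -1.73 (Lrp8) and -0.99 (Stard4) to 1.08 (Abcg1) and 1.18 (Nr1h3), with 0 members called at an adjusted p (0% of genes) and 0 at an unadjusted p under 0.05 (7.84% of genes). Acat2 (-0.98), Lbr (-0.79) and Stard4 were negative and Tm7sf2 (0.66) positive at that level. Of the proliferation genes, 6 of 6 were negative at that level with a median of -1.66, and 7 of 7 luminal markers were negative with a median of -0.58, 1 of them at that level. Their part in the sign of the members was not tested. In the test for any difference among the 4 tumor groups, Dhcr7 was the 1 member of 8 at an unadjusted p under 0.05 (adjusted p = 0.559, edgeR) against 8.54% of genes, and 0 members and 0% of genes passed after adjustment.

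Most of the 8 genes varied together from tumor to tumor. Over 11 tumors the median Pearson r of the 28 pairs was 0.482, against 0.008 over all pairs of the 9815 genes with a mean of at least 10 CPM, a description of tumors that share groups and scaling. Srebf2 and Insig1 were the closest pair (r = 0.80), followed by Insig1 and Idi1 (r = 0.77). Each of the 7 genes other than Sqle was positively related to the mean of the remaining members, from r = 0.469 for Lss to 0.860 for Insig1, and Insig1 kept r = 0.876 without the 2 tumors farthest from the median of that mean. Tumor DMAG 3 had the highest mean of the 8 standardized levels (1.12 SD) and was the highest tumor for 4 of the 8 members and for 9 of the 21 enzymes, although it was the highest for 3.20% of all genes. The lowest means were in DMAG 1 (-0.855) and in the DMAG+STV tumors (-0.755 and -0.726), so the replicates of the DMAG group held both ends.

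Sqle was the exception. Its median r with the 7 other members was -0.166, and with Lss it was -0.751. Both rested on tumor DMAG 1: without it the median was 0.346, Sqle and Hmgcs1 moved from -0.11 to 0.72, and Sqle and Lss from -0.751 to 0.021. The count ratio of Sqle to Lss was 4.08 in DMAG 1, 0.605 to 1.16 in the other 10 tumors, and 0.960 and 1.93 in the glands. Relative to Fdft1 the Sqle count was 4.39-fold in DMAG 1 and 1.19-fold to 3.16-fold in the other tumors. In DMAG 1, Sqle, Mvd, Fdps and Sc5d (lathosterol oxidase) were the highest of 11 tumors, and Hmgcs1, Lss, Mvk, Pmvk, Nsdhl and Ebp the lowest. The margin to the next tumor ran from 1.01-fold (Sc5d) to 1.66-fold (Sqle) at the high end. At the low end it ran from 1.04-fold (Pmvk) to 1.76-fold (Lss). DMAG 1 held the highest value for 24.6% and the lowest for 24.7% of all genes, so 4 and 6 of 21 enzymes were near its background. It also had the most macrophage marker RNA (426 CPM against 104 to 268 CPM in the other tumors) and the lowest Srebf1. Its milk protein sum was the highest too (23365 CPM, the next tumor at 18773 CPM), as was its low B cell sum (1.53 CPM). The luminal sum (2818 CPM, the next at 2780 CPM) and the proliferation sum (819 CPM, the next at 780 CPM) were highest by small margins. Whether cell makeup or RNA of this sample moved the ratio was not tested.

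**Figure D4:**
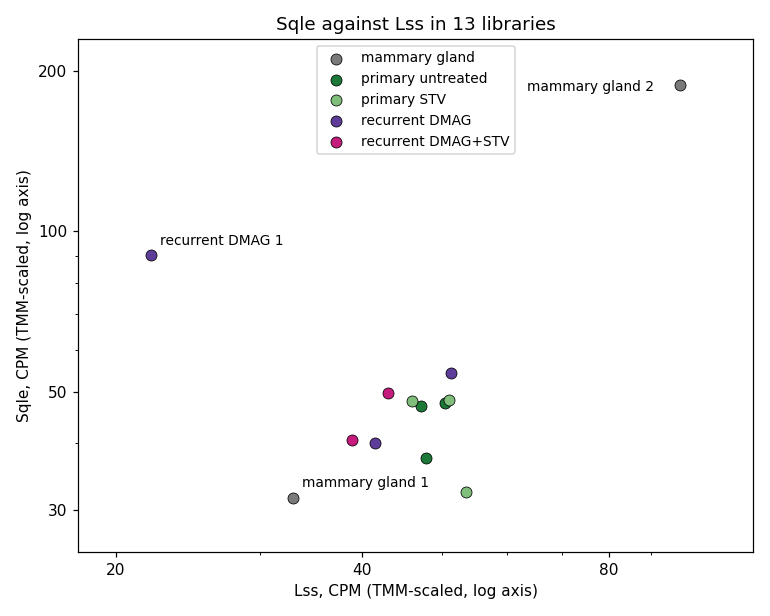
Sqle against Lss in TMM-scaled CPM (both axes logarithmic), with 1 point per library colored by group. The other 10 tumors lie close together, tumor DMAG 1 stands alone at 22.1 CPM of Lss and 90.2 CPM of Sqle, and gland 2 is high in both genes.

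**Figure D5:**
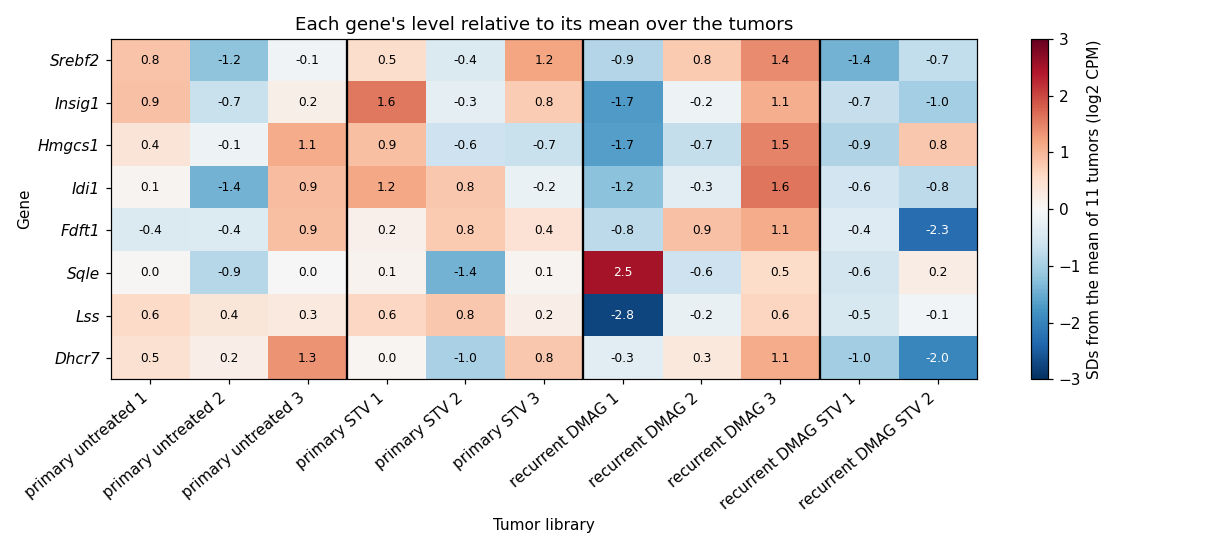
Level of each gene (rows) in each tumor (columns) in SDs from its mean over the 11 tumors on the log2 CPM scale, with vertical lines between groups. All 8 genes are above their means in STV primary tumor 1 and DMAG 3 and below them in DMAG+STV 1, the other 8 columns hold both signs, and Sqle in DMAG 1 is 2.49 SDs above its mean where the other 7 genes are below theirs.

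The mean standardized level of the 8 was followed most closely over 11 tumors by Pxylp1 (r = 0.927), Svil (r = 0.910), Chad (r = 0.909), Smug1 (r = 0.903), 6030407O03Rik (r = 0.902), Acsf2 (r = 0.899), Slc29a1 (r = 0.894), Tmem63a (r = 0.893), Akap5 (r = 0.888) and Prickle2 (r = 0.881) among 12848 genes ranked. In the fixed lists, 12 of 15 other enzymes were positively related, among them Mvk (mevalonate kinase, r = 0.801) and Acat2 (r = 0.758). All 7 genes ranked of efflux, esterification and LXR were negative, with a median of -0.688, from -0.835 for Nr1h3 to -0.206 for Nr1h2. Apoe and Abcg1, a sterol exporter, were at -0.745 and -0.736, and Lipa was at -0.785. All 6 macrophage markers were negative as well, from -0.741 (Cd68) to -0.411 (Mrc1), and all 6 proliferation genes positive, from 0.252 (Bub1) to 0.486 (Ccnb1). These are correlations over the same 11 libraries, and what the macrophage share adds to the pattern of efflux genes was not tested.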

How the data were processed

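Total RNA from frozen tissue was depleted of rRNA and sequenced as stranded libraries. Per the labels and the study's methods, the authors demultiplexed reads with bcl2fastq 2.20, aligned them with STAR to mm10 (GRCm38) and counted them per gene with featureCounts (Subread 1.6.2). The strand setting is not given in the sources used here, so overlapping and antisense genes may share counts. The deposited values are raw counts in 1 table of 24421 genes, of which a single row, the rRNA precursor Rn45s, held 4.70% to 7.98% of counts. No column of another sample was present.

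The 8 genes, the gene lists and the comparisons were chosen with earlier results of these data known. Groups came from the sample labels. Counts were tested with edgeR 4.0.16 (R 4.3.3, limma 3.58.1): TMM factors, filterByExpr, robust quasi-likelihood fits on group means, 2-sided, with Benjamini-Hochberg adjustment over all genes tested and calls at 0.05. Gland comparisons used 13 libraries (17135 genes) and tumor comparisons the 11 tumors (16870 genes). The biological coefficient of variation was 0.431 and 0.402. Scripts were tested on simulated counts. Named list genes were those called, or the 2 largest differences in each direction where none was called. Other list genes at an unadjusted p under 0.05, list genes with single values, and markers were named after their values were seen. A few list genes were counted in their lists but are not reported here by name. Alternatives were DESeq2 1.42.0 (which the study's methods use), its size factors, no filter, marker genes left out, compared groups only, each library left out, a replicate block and, chosen after seeing the data, library totals without TMM and tumor correlations without DMAG 1. Likeness used log2 CPM with a prior of 0.25 and left out genes whose mean log2 CPM was below 1. Libraries of a group differed by far more than counting noise, so none was counted as a duplicate. Sequences are from RefSeq, lengths and gene positions from GENCODE vM21.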

Additional observations from a re-analysis of the deposited data

How the results depend on the processing

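Of 176 recomputed counts of called members over 9 comparisons, 156 stayed within 1.5 times the reported count and 20 moved, all of them in the gland comparisons. With tumors against glands, where 1 member was called, DESeq2 called 3 (Insig1, Hmgcs1 and Fdft1) and leaving out 1 library gave 0 to 5, the ends being the fits without gland 2 and without gland 1. With untreated primary tumors against glands, also 1 call, the count was 0 with no filter on low counts, without milk, adipocyte and muscle genes, with the compared groups only and with library totals, and 0 to 4 when 1 library was left out. For single members, leaving out a library moved the log2 difference of Fdft1 from -1.17 to 0.0315 for all tumors and from -1.14 to 0.0727 for untreated primary tumors, that of Sqle from -1.94 to 0.684 and from -2.06 to 0.573, and that of Hmgcs1 in untreated primary tumors from -1.01 to 0.0615, the positive ends being the fits without gland 2. Over all genes, tumors against glands gave 1785 calls, 3238 with DESeq2, 489 with library totals, 535 without gland 2 and 4255 without gland 1. Replicate numbers were shared between groups. Deviations of same-numbered tumors from their group means correlated at -0.265 to 0.237 over 15 pairs, and those of other numbers at -0.408 to 0.361 over 30 pairs. With group means of only 2 or 3 libraries the deviations constrain each other, so these values cannot decide whether samples were paired. With the replicate number as a block, untreated primary tumors against glands gave 0 called members in place of 1, and all tumors against glands gave 1 member and 371 genes. Among tumors no alternative called a member in any comparison. Depth did not limit the 8 genes, all well above a count of 3, and groups of 2 and 3 libraries set the width of the intervals.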
